A study of Mus musculus with 2 samples.

Results

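The 10 genes Klf1, Klf2, Klf3, Klf4, Klf6, Klf10, Klf13, Klf16, Sp1 and Sp3 were described at the level of open chromatin in mouse erythroblasts, the nucleated cells that mature into red blood cells. They are 10 of the 26 Krüppel-like factor (KLF) and specificity protein (SP) genes and of 21938 protein-coding genes in the annotation (GENCODE M21, genome build mm10). They were chosen by name, with earlier results of these data known. The assay was ATAC-seq, which uses a transposase to tag DNA that is free of nucleosomes for sequencing. The series held 1 group, primary erythroblasts of male C57BL/6J mice, adults aged 5 to 6 weeks, with no genotype other than the strain and no treatment named. It had 2 biological replicates made from 50000 cells each, which carry the same donor identifier in the labels. No contrast between conditions could therefore be made, no test was run, and the spread between the replicates may be technical. For each gene, the open intervals overlapping the gene body or the 50 kb to either side of it were counted. They were split into promoter intervals (within 1 kb of any annotated start site of the gene), intragenic intervals and intervals outside the gene.

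KLF and SP factors share zinc fingers at the carboxyl end, which bind GC-rich DNA of the CACCC-box and GC-box kind, so that several members can act at the same sites. Klf1 is the erythroid member and activates the adult beta-globin gene through its CACCC box. It also activates Klf3, whose product recruits CtBP corepressors and represses many of the sites that Klf1 activates. Sp1 and Sp3 are expressed in nearly all cells and act at GC boxes of housekeeping promoters.

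The sequences below are those on which the account of the loci turns, each read from the mm10 genome 5′ to 3′ in the direction of transcription of the gene it is named for. The promoters are the 150 bp before the outermost annotated 5′ end, and the sites are the 151 bp centred on a summit, the point of strongest signal, of replicate 1. Capitals mark exact matches on either strand to a KLF-type box (CCNCNCCC, a degenerate CACCC box) or to a GATA-factor motif (AGATAA with its variant AGATAG and, with another first letter, TGATAA with its variant TGATAG). In the promoters they also mark the CCAAT box, and in the Klf1 upstream site the E-box CAGNTG. Overlapping matches run together in capitals. A match is a description of the letters and not evidence of binding. Among the 150-bp windows before 21938 protein-coding genes, 43.3% held a KLF-type box, 14.3% a GATA motif and 27.2% a CCAAT box. The first pair shows the start of Klf1 (chr8:84901778-84901927, plus strand) and its most enriched site (chr8:84901236-84901386, plus strand), where a pair of GATA matches flank an E-box.
Klf1 promoter: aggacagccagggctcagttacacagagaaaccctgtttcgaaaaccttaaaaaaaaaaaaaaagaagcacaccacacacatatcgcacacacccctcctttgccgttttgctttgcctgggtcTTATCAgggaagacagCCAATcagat
Klf1 upstream site: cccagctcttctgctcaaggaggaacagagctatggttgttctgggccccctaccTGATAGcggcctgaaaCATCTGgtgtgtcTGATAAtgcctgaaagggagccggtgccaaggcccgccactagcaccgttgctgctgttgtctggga

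The next pair comes from Klf3 and shows the site beside its internal start sites (chr5:64811681-64811831, plus strand) and the site beyond its 3′ end (chr5:64864767-64864917, plus strand), which holds the stricter box CCACACCC 3 times.
Klf3 internal site: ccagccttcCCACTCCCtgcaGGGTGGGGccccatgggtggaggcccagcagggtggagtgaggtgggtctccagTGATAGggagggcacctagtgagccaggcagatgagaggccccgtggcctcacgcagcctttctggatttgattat
Klf3 distal site: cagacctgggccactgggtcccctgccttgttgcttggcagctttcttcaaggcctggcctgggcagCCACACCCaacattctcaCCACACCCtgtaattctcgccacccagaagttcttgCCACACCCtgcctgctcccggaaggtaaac

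The following 4 sites are the open sites away from the promoters of Klf13, Klf16 and Sp3 that are described in most detail. They lie in an intron of Klf13 (chr7:63896973-63897123, minus strand), upstream of Klf13 (chr7:63956274-63956424, minus strand), in an intron of Klf16 (chr10:80569800-80569950, minus strand) and upstream of Sp3 (chr2:72997149-72997299, minus strand).
Klf13 intron site: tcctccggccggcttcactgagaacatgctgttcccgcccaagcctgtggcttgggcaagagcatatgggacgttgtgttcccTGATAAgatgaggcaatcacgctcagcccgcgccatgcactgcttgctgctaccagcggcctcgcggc
Klf13 upstream site: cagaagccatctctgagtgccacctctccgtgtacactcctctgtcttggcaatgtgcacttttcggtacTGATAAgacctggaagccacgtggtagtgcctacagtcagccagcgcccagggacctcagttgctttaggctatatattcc
Klf16 intron site: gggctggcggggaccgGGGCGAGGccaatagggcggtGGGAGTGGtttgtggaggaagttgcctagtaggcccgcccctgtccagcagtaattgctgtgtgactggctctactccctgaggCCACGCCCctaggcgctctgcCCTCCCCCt
Sp3 upstream site: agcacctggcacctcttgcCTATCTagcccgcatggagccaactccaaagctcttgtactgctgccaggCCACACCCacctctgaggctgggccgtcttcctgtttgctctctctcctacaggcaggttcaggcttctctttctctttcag

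The last 3 are the promoters of the member with the highest enrichment, Klf6 (chr13:5861332-5861481, plus strand), and of the members that were not open, Klf2 (chr8:72318883-72319032, plus strand) and Klf4 (chr4:55532467-55532616, minus strand).
Klf6 promoter: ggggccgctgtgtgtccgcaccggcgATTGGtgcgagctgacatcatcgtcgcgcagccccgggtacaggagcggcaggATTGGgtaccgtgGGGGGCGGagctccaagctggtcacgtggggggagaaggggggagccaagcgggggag
Klf2 promoter: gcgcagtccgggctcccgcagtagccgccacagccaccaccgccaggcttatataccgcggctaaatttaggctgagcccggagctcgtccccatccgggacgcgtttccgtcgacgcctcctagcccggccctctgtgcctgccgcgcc
Klf4 promoter: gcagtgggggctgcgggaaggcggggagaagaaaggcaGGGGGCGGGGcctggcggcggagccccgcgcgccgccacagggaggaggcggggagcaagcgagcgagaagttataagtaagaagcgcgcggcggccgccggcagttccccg

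Each replicate had its own list of intervals thresholded on the irreproducible discovery rate (IDR), with 17777 distinct intervals in replicate 1 and 18837 in replicate 2, and a longer, less strict list with 31830 and 33552. A series list of intervals replicated between the libraries held 43051. These lists hold no read counts, so the sequencing depth is unknown. Of 8 erythroid marker genes, 7 had a promoter interval in both replicates, against 41.4% of all protein-coding genes. Alas2 had one in the less strict lists only, with an enrichment of 3.54 and 3.99. Among markers of other blood cells, 3 of 19 had one (Cd163, Itga2b and Gp1ba). The strongest promoter summits of Gata1, Cd163 and Itga2b lay far from the 5′ end, at +10084, +17027 and +2835 bp in replicate 1. Replicate 2 is labelled with 2 models of sequencing instrument and replicate 1 with none, so an instrument effect cannot be told apart from the libraries themselves.

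Most of the 10 chosen members were open at a start site. In the thresholded lists, 8 of 10 members had a promoter interval in both replicates, namely Klf1, Klf3, Klf6, Klf10, Klf13, Klf16, Sp1 and Sp3, where 41.4% of all protein-coding genes did (9083 of 21938). Klf2 and Klf4 had none in either replicate. When only intervals at or above the median enrichment of their list were kept, 1 member, Klf6, had a promoter interval in both. The list medians, 7.83 and 7.74, lay near the lower quartiles of all open protein-coding promoters, 7.70 and 7.73. The share of all genes kept by this filter was not computed. An intragenic interval in both replicates was present in 4 of 10 members, against 11.3% of genes, and an interval outside the gene in 7 of 10, against 56.7%. No interval anywhere in the window was listed for 2 of 10 members, Klf2 and Klf4, against 31.6% of genes.

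The number of intervals per window ran from 0 to 17. Klf16, a factor first described as a regulator of dopamine receptor genes, had 17 in each replicate, of which 14 lay outside the gene. Klf1 had 11 in replicate 1 and 13 in replicate 2 (12 ± 1.41, mean ± SD, n = 2), and Sp1 had 8 and 12 (10 ± 2.83). Klf16 and Klf1 thus kept their order in both libraries, whereas the counts of Sp1 differed more between the replicates than those of any other member. Klf13 had 7 and 8, Klf3 had 6 and 5, Sp3 had 4 and 7, Klf10 had 4 and 4, and Klf6 had 1 and 2. The median over the 10 members was 5 in replicate 1 and 6 in replicate 2, and over all protein-coding genes it was 2 in both. Windows with many intervals also held the starts of other genes: 7 other protein-coding 5′ ends lay in the Klf16 window, 6 in that of Klf1 and 4 in that of Sp1, but 0 in those of Klf3, Klf4, Klf6 and Klf10. The part of neighbouring genes in these counts was measured by place only, as given for each locus.

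**Figure D1:**
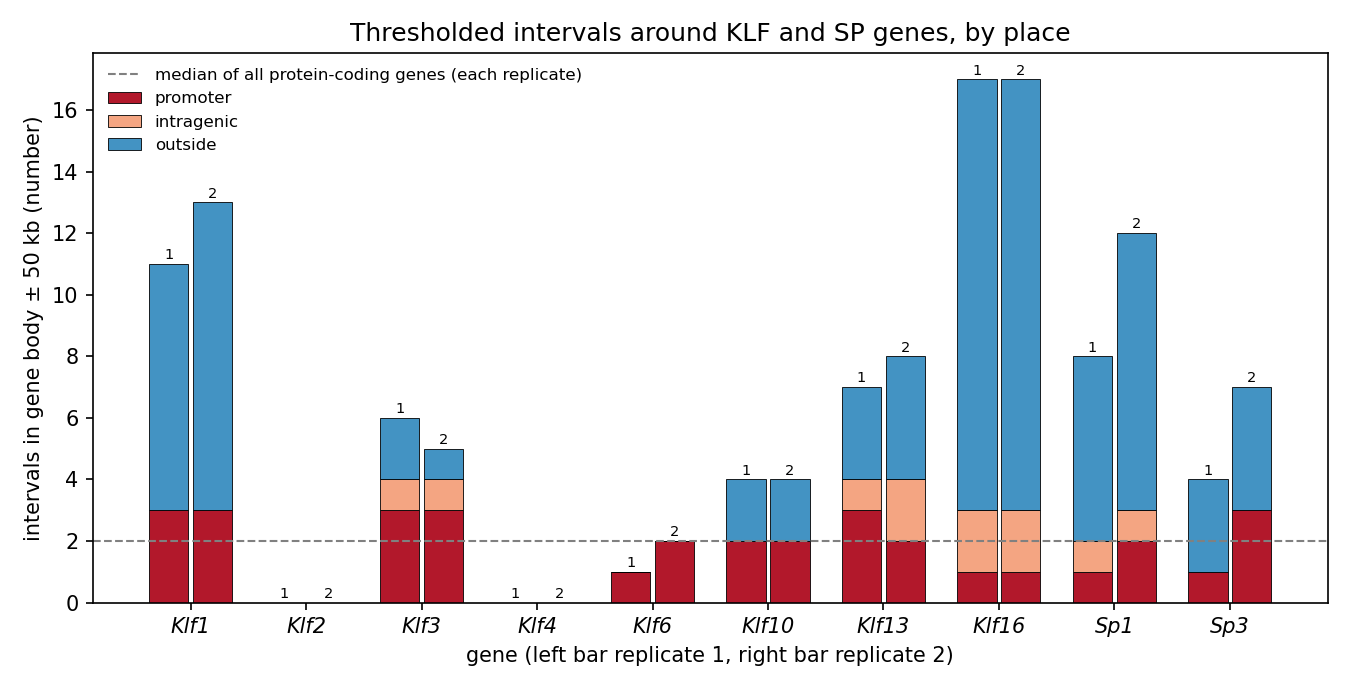
Number of open intervals (thresholded lists) in the window of each of the 10 genes, the gene body plus 50 kb to either side, with 1 stacked bar per replicate split into promoter, intragenic and outside intervals. Klf16 reaches 17 in both replicates, mostly outside the gene, and Klf2 and Klf4 stay at 0.

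Joined across replicates, the windows held 69 sites, of which 56 were in both lists, 2 in replicate 1 only and 11 in replicate 2 only. All 69 overlapped the series list, and 12 of the 13 found in 1 thresholded list were in the less strict list of each replicate. The remaining site, at +432 bp in Klf6, had an enrichment of 1.78 in replicate 2 and lay next to the main Klf6 promoter interval. Of the 56 shared sites, 15 were promoter sites, 5 intragenic and 36 outside, and 16 of the 36 lay within 1 kb of the start of another gene. In replicate 1, 96.6% of the members' intervals overlapped one of replicate 2, where 91.1% of all its intervals did. In replicate 2, 83.8% overlapped one of replicate 1, where 86.3% did. A start of any gene lay within 1 kb of the summit for 31 of 58 member intervals (53.4%) in replicate 1 and 39 of 68 (57.4%) in replicate 2, against 57.4% and 56.1% of all intervals.

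The height of the promoter signal set Klf6 apart from the other members. It is given as enrichment, the fold of a summit over background by the authors' caller, for the strongest promoter interval of each gene, and the values of the replicates come from lists made separately. Klf6, a broadly expressed family member known as an early-response gene, had 12.6 in replicate 1 and 14.0 in replicate 2 (13.3 ± 0.976, SD, n = 2). Sp3 had 7.56 and 7.65 (7.61 ± 0.0651), and Sp1 had 7.49 and 7.61 (7.55 ± 0.0849). Sp3 was above Sp1 within each list. Across the lists the values of Sp3 and Sp1 overlapped, and whether these neighbours in the order differ was not tested. Both lay below both values of Klf6.

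Klf13, known to influence erythroid maturation, had 6.11 and 6.59 (6.35 ± 0.344), and Klf10, an early-response gene of transforming growth factor beta, had 6.32 and 6.25 (6.28 ± 0.0511). Klf1 had 5.88 and 5.85 (5.87 ± 0.0188), and Klf3 had 5.81 and 5.76 (5.78 ± 0.0313). Klf16 was lowest, with 4.87 and 4.48 (4.67 ± 0.272). Klf13 and Klf10 overlapped, and Klf1 and Klf3 lay side by side without overlapping. With the summit nearest to a start in place of the strongest, the means were 2.29 for Klf13 and 3.45 for Klf10, both below that of Klf16.

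Against the 9251 and 9385 genes with a promoter interval in replicates 1 and 2, the members sat low. The medians of those genes were 9.65 and 9.76, with quartiles of 7.70 and 11.8 in replicate 1 and 7.73 and 11.8 in replicate 2. Klf6 lay above the upper quartile in both replicates and the other 7 open members lay below the lower quartile in both. By the significance of the same summit (the caller's −log10 p) the order was different. Sp1 stood at the 87.7th and 87.0th percentiles of open promoters, near Klf6 at the 93.8th and 96.7th, while Klf1 stood at the 32.5th and 28.4th and Klf3 at the 26.1st and 24.0th. A low fold in these lists therefore went with both high and low significance.

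**Figure D2:**
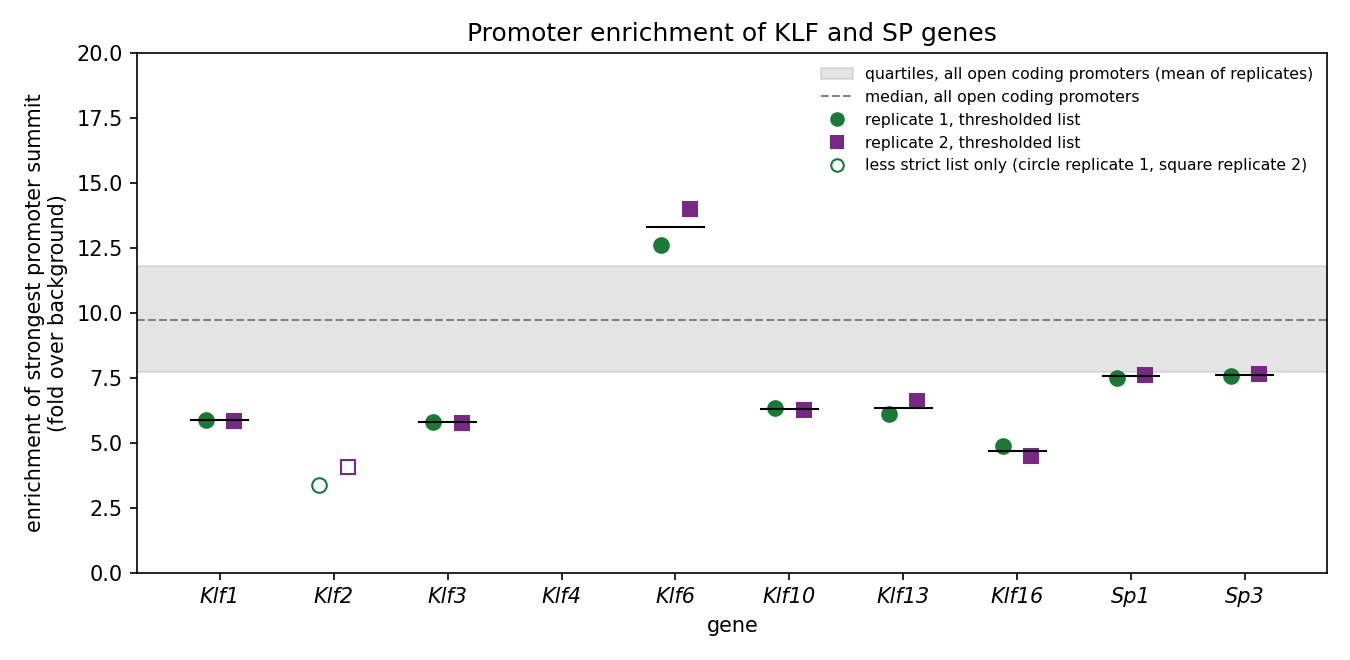
Enrichment (fold over background) of the strongest promoter interval of each gene, with 1 point per replicate, set beside the median and quartiles of all open protein-coding promoters. The points of Klf6 lie above the upper quartile, those of the 7 other open members below the lower quartile, and Klf2 and Klf4 have no thresholded value.

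Klf1 was open at and around its single annotated start on chromosome 8 (gene body chr8:84901928-84905291, plus strand). It had 3 promoter sites in both replicates. The most enriched was the upstream site, with its summit at -617 bp from the 5′ end in replicate 1 and -626 bp in replicate 2 and an enrichment of 5.88 and 5.85. The site over the start itself, with its summit in the 5′ untranslated region at +10 and +6 bp, had 4.49 and 5.26. The upstream site was thus the higher of the pair in both libraries. The third site, with its summit in a Klf1 exon at +1301 and +1298 bp, had 4.13 and 4.61 and its edge was 928 and 975 bp from the start.

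An upstream enhancer of Klf1 in which GATA motifs lie to either side of an E-box is known, and the printed upstream site holds such an arrangement. The E-box with the second GATA match also fits a composite spacing, CTG followed 7 to 9 bases later by GATA. Of all intervals with a start within 1 kb, 4.06% held this spacing in replicate 1 and 4.1% in replicate 2. The site over the start and the exon site also held it within 75 bp of their summits in both replicates. The exon site has no start within 1 kb of its summit, a class in which 19.7% and 18.9% held it. Whether the printed upstream site is the known element was not tested. None of the 3 promoter sites of Klf1 held a KLF-type box within 75 bp of its summit in replicate 1. In the 300 bp around its start in RefSeq (GRCm38.p6), Klf1 had a ratio of observed to expected CpG of 0.152, the 16.5th percentile of 16522 promoters, while the other 7 members with a RefSeq promoter ranged from 0.659 (Klf3) to 0.974 (Klf4), against a median of 0.602. Klf10 and Klf16 had no entry. Klf2, at 0.889, and Klf4, the members without a thresholded promoter interval, thus had higher ratios than Klf1, which had one.

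Outside the gene, Klf1 shared 7 sites between the replicates, and 5 of them lay at the starts of neighbours. The highest was at the start of Gcdh, a glutaryl-CoA dehydrogenase gene, with 11.6 and 11.98, and the next at that of Farsa, a phenylalanine tRNA synthetase subunit, with 10.5 and 10.4. Both exceeded every Klf1 promoter site in both libraries. The other starts were those of Syce2, with 5.76 and 6.27, and Dnase2a, with 7.08 and 7.82 at one site and 4.46 and 4.41 at another. Dnase2a encodes the DNase II that macrophages use to degrade expelled erythroblast nuclei. The remaining sites had no start within 1 kb, one intergenic at +42716 bp in replicate 1 with 5.89 and 7.34, and one in an exon of Rtbdn at +51075 bp with 7.64 and 7.43. The intervals nearest to the window's edge lay 47419 bp (inside) and 54285 bp (outside) from the gene body in replicate 1 and 47440 and 51537 bp in replicate 2.

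**Figure D3:**
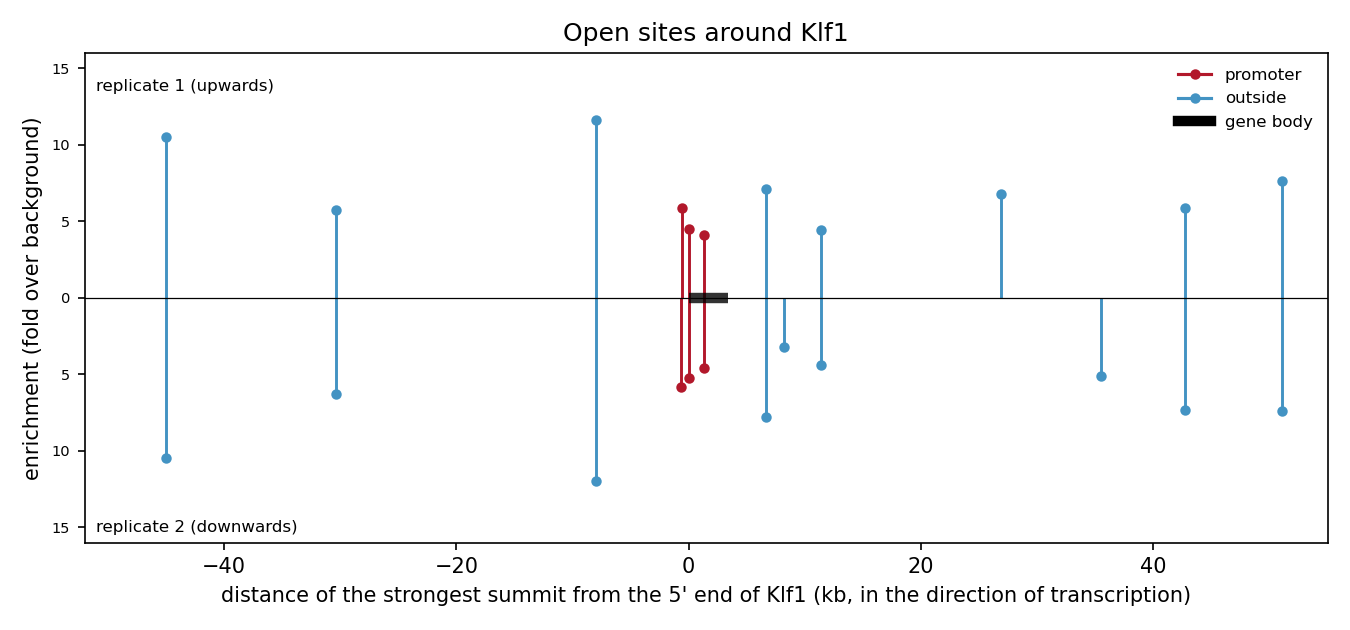
Enrichment of each open site (fold over background) against its distance from the 5′ end of Klf1 in kb, in the direction of transcription, with replicate 1 drawn upwards and replicate 2 downwards. The promoter sites reach 5.88 in replicate 1, below the Gcdh start at 11.6.

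The layout of intervals around Klf1 was compared with that of genes on other chromosomes. Over 6 values per gene (the counts of promoter, intragenic and outside intervals in each replicate, as log2 of the count plus 1), the nearest genes by Euclidean distance were Cirbp and Mcat, both at 0.138, and Hmg20b at 0.152. Cirbp and Mcat had 3 promoter, 0 intragenic and 8 outside intervals in replicate 1 and 3, 0 and 9 in replicate 2. Their mean promoter enrichments were 6.37 and 11.1, and that of Hmg20b was 6.84.

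Klf3, the repressor downstream of Klf1, was open at its first promoter and again inside the gene. The first promoter had its summit at -233 bp in replicate 1 and -243 bp in replicate 2 (5.81 and 5.76), and the starts of the noncoding genes C230096K16Rik and Gm20033 lie within 1 kb of it, so their share of the signal cannot be told apart. A pair of sites lay beside 3 internal starts of the gene, which are annotated 8951 to 8996 bp from its 5′ end. The one with its summit at +8368 and +8360 bp had 4.92 and 5.05, and the one at +8903 bp in both had 4.63 and 4.90. Both internal sites were thus found in each library at somewhat below the level of the first promoter. Of 9 annotated Klf3 starts, 6 were covered by an interval in both replicates, and the 3 furthest downstream were not.

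A further intron site of Klf3 at +6682 bp had 3.85 and 4.03. The distal site at +61454 and +61452 bp, beyond the 3′ end (chr5:64864646-64865032), had 7.85 and 8.80 and was the most enriched of the Klf3 window in both libraries. No start of any gene lies within 1 kb of it. Its window carries the box CCACACCC 3 times, which 6.5% of all intervals without a nearby start held at least once in replicate 1 and 6.44% in replicate 2. Among the members' intervals without a nearby start, 2 of 27 in replicate 1 and 2 of 29 in replicate 2 held this stricter box. They were the Klf3 distal site and the Sp3 upstream site.

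Klf13 had its highest signal away from its promoter. The promoter summit was at -216 bp (6.11) and -218 bp (6.59), with weaker sites at +2318 bp (3.64 and 3.81), over a pair of internal starts, and at +1160 bp (2.89 and 3.18). The edge of that last interval was 993 bp from a start in replicate 1 and 1046 bp in replicate 2, so it counted as a promoter interval in the first and as intragenic in the second. Other intervals just beyond the 1 kb limit were 1 upstream of Klf10 (1074 and 1077 bp) and 1 upstream of Klf16 (1124 and 1139 bp). The Klf13 intron site at +41867 bp (chr7:63896809-63897470) had 10.2 and 9.80. It lies within 1 kb of the start of the predicted gene Gm27252, and which gene it belongs to was not tested.

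Upstream of Klf13, 3 intergenic sites were found in both replicates. The site at -17434 bp had 9.76 and 10.3, that at -26473 bp had 4.79 and 6.41, and that at -35412 bp had 9.46 and 12.2. The intron site and the sites at -17434 and -35412 bp all exceeded both values of the promoter. The printed intron and upstream windows each hold 1 GATA match and no KLF-type box.

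Klf10 and Klf6 had compact layouts. Klf10 had promoter sites at -89 and -92 bp (6.32 and 6.25) and at +1653 and +1652 bp (3.47 and 3.42), the latter over an internal start, and a distal site at +16648 bp with 6.81 and 8.59. All 4 Klf10 starts lay within 1 kb of an interval in both replicates. Klf6 had no site other than at its promoter, so its high enrichment came with the fewest intervals of any open member.

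Klf16 had its promoter site at -162 and -148 bp (4.87 and 4.48) and intron sites at +7446 bp (5.52 and 5.86) and +4623 bp (3.02 and 3.07). The former intron site was higher than the promoter in both replicates and holds 4 KLF-type boxes in the printed window. Of its 14 shared outside sites, 9 lay at other starts, including those of Rexo1, Abhd17a, Scamp4 and Csnk1g2. The highest of them, near the start of Abhd17a, had 9.53 and 9.85.

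Sp1 and Sp3, the ubiquitous members, each had their highest signal outside the gene. The Sp1 promoter interval was wide and held 3 summits, the strongest at -32 bp in replicate 1 (7.49) and at -428 bp in replicate 2 (7.61). Its intron site at +15481 bp had 6.18 and 7.63. The highest value in the window, 14.4 and 14.3, belonged to the start of Pcbp2, a poly(C)-binding protein gene. Of 6 annotated Sp1 starts, 5 lay within 1 kb of an interval in both replicates. Sp7, the bone-specific SP gene, lies within the Sp1 window, so intervals between them count for both genes.

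Sp3 had its promoter summit at -64 bp (7.56) and -71 bp (7.65). The antisense gene Sp3os starts within 1 kb of it and the predicted gene Gm11084 spans it, and ATAC-seq signal has no strand, so these cannot be told apart. Further promoter intervals at +1394 bp (5.15) and +553 bp (3.49) were in the thresholded list of replicate 2 only. The less strict list of replicate 1 held both, with 4.78 and 2.77. The intergenic site at -16778 and -16775 bp (chr2:72996659-72997514) had 13.4 and 10.9, and that at -43535 bp had 10.2 and 10.8. Both were above the Sp3 promoter in each library. Among the members' sites with no start of any gene within 1 kb, the former was the highest in replicate 1, and the Klf13 site at -35412 bp (12.2) was the highest in replicate 2.

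**Figure D4:**
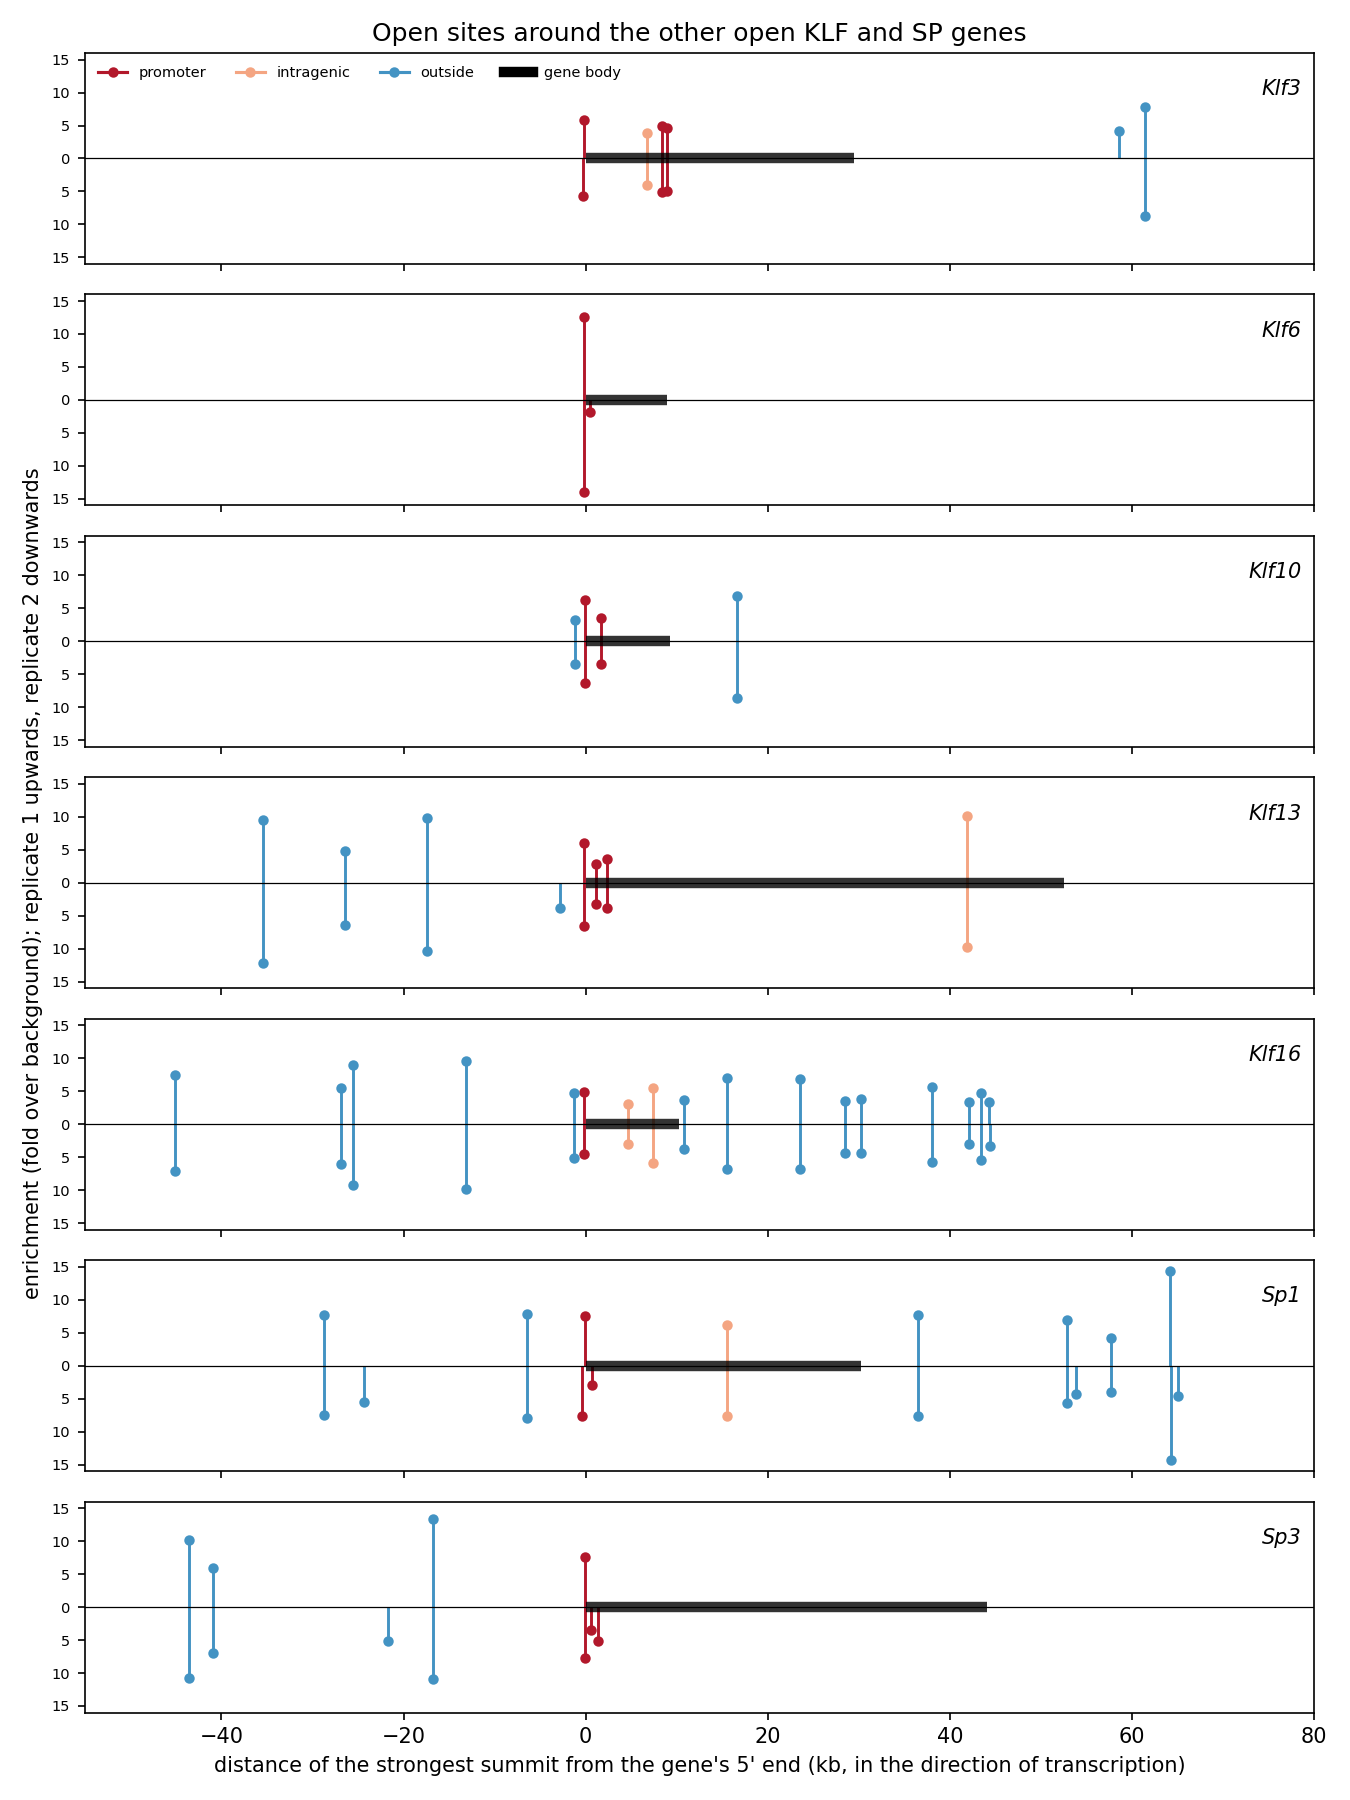
Enrichment of each open site (fold over background) against its distance in kb from the 5′ end of the other 7 open members, with replicate 1 drawn upwards, replicate 2 downwards and the gene body as a bar. All of them except Klf6 have a site outside the promoter that is higher than the promoter in both replicates, and Klf6 has only promoter sites.

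Klf2 and Klf4 were the members without a thresholded interval. Klf2, known for its roles in endothelial cells, in T cell quiescence and in embryonic globin expression, had a weak promoter interval in the less strict lists, with 3.36 and 4.07, and 2.92 in the series list. In those lists its window also held an interval at +46955 bp in replicate 1 and +46959 bp in replicate 2, with 4.79 and 5.08, higher than its promoter in both. Klf4, best known as a pluripotency factor, had no promoter interval in any of the lists used. Its window held 1 weak interval, at +51857 bp with 3.83, in the less strict list of replicate 1. The series list also held 1 interval outside the gene. With the less strict lists, 9 of 10 members were open in both replicates, against 46.6% of protein-coding genes, and Klf2 was the one added. An interval that is not listed may lie below the lists' thresholds, and with unknown depth that cannot be called closed chromatin.

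Across the 10 members, 37 start sites are annotated, of which 25 lay within 1 kb of an interval in both replicates and 20 were covered by one in both. For Klf2 and Klf4 the count was 0 of 1 and 0 of 3.

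Where no start lay nearby, the degenerate KLF-type box and the GC box were frequent in these windows, but the stricter box CCACACCC was not. Among the members' intervals with no start of any gene within 1 kb of the summit, 17 of 27 (63.0%) in replicate 1 and 16 of 29 (55.2%) in replicate 2 held a KLF-type box in the 151-bp window, against 26.1% and 26.2% of all such intervals. The GC box GGGCGG, which can overlap a KLF-type box, was in 11 of 27 (40.7%) and 11 of 29 (37.9%), against 11.3% and 11.4%. The stricter box was in 2 of 27 (7.41%) and 2 of 29 (6.90%), near the 6.5% and 6.44% of all such intervals. A GATA motif was in 8 of 27 (29.6%) and 10 of 29 (34.5%), against 45.8% and 44.7%. The base composition moved with these shares: the median GC content of the members' windows was 58.3% and 57.0%, against 52.3% in both lists, and its part in the difference was not tested. Because the class goes by the summit, it includes sites beside promoters. In replicate 1 these were the Klf1 site at +1301 bp, the Klf13 site at +1160 bp and the Klf10 site at -1183 bp. Intervals within 1 window share their surroundings, and Klf16 gave 7 of the intervals in each replicate. Over the whole interval in place of the 151-bp window, the KLF-type box was in 74.1% and 65.5%, against 48% and 47.2% of all, the GC box in 59.3% and 55.2%, against 19.1% and 18.8%, and GATA in 55.6% and 55.2%, against 65.5% and 64.2%. Without Klf16, the shares in the 151-bp window were 60% and 50% for the KLF-type box, 35% and 31.8% for the GC box and 20% and 27.3% for GATA.

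By gene, the KLF-type boxes without a nearby start lay at 5 of 7 intervals of Klf16 in both replicates, at all 3 of Klf3 in replicate 1 and both in replicate 2, and at 3 of 3 and 3 of 4 of Sp3. They lay at 2 of 4 and 2 of 5 intervals of Klf13, at 2 of 5 and 2 of 6 of Sp1, at 1 of 3 of Klf1 and at 1 of 2 of Klf10 in both replicates, and Klf6 had no such interval. At intervals with a start within 1 kb the picture was near the background for the KLF-type box, with 15 of 31 (48.4%) and 23 of 39 (59.0%), against 52.9% and 52.7%. There a GATA motif was in 8 of 31 (25.8%) and 10 of 39 (25.6%), against 13.1% in both. The ETS motif CCGGAA, common in housekeeping promoters, was in 2 of 31 (6.45%) and 3 of 39 (7.69%), against 21.3% and 21%. This class counts the start of any gene, so it holds promoters of neighbours as well as those of the members. In replicate 1 the GATA matches lay at Klf1 and Klf3 promoter sites and at the starts of Rexo1, Csnk1g2, Pcbp2 and Gm27252. Shares for the members' own starts alone, or without Klf16, were not computed for this class. The runt-factor motif TGTGGT, the core of the CTCF motif, the CCAAT box and the E-box are drawn in the plot of motif shares.

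**Figure D5:**
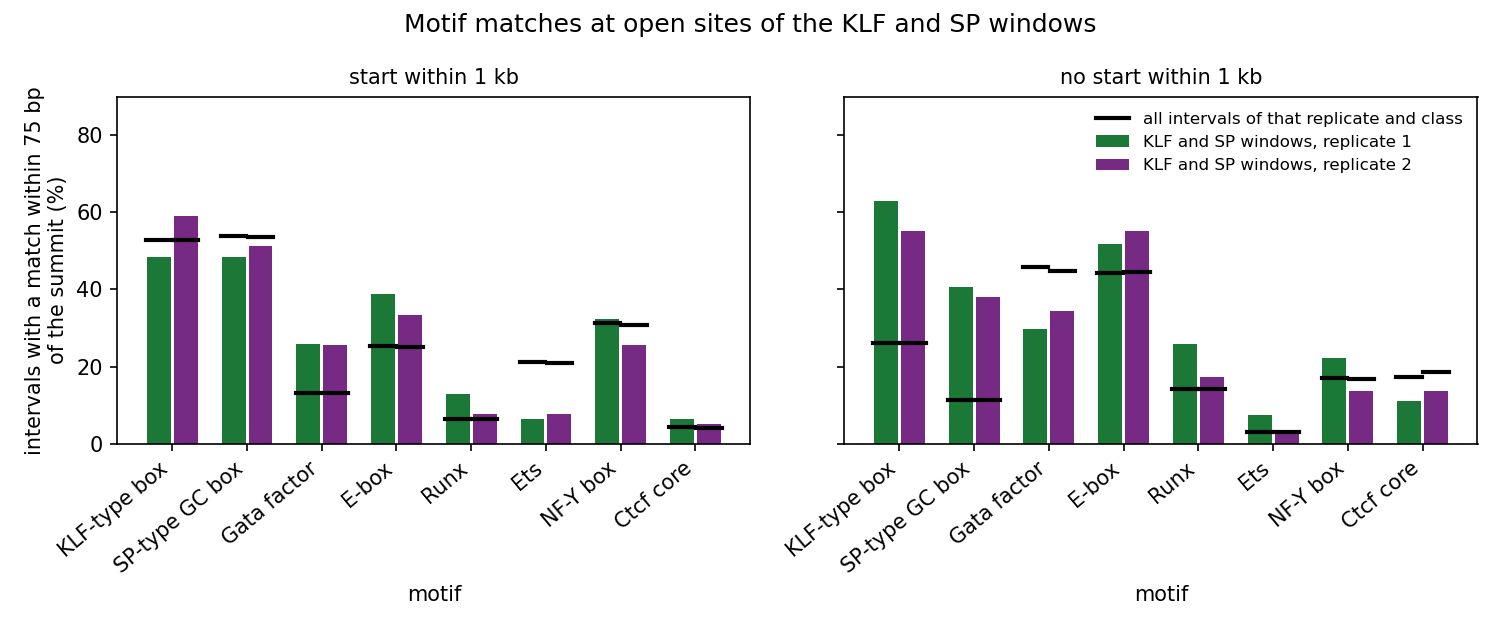
Percent of the members' intervals with at least 1 match within 75 bp of the summit, for the motifs named by the factor or box, with 1 bar per replicate, split by whether a start of any gene lies within 1 kb. Black lines give the percent over all intervals of that replicate and class: without a nearby start, the KLF-type and GC boxes lie above the line in both replicates and the GATA motif below it.

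The rest of the family was described in the same way. Of the other 16 KLF and SP genes, 6 had a promoter interval in both replicates (Klf5, Klf7, Klf9, Klf11, Sp2 and Sp4), against the 41.4% of all genes, and the difference from the 10 members was not tested. Klf7 had an enrichment of 12.2 and 12.1, Sp2 of 9.44 and 8.80, and Klf9 of 7.96 and 7.99. Klf11 had 7.21 and 6.49, and Sp4 had 6.45 and 6.61. The Sp2 summit lay far from the outermost 5′ end, at +5042 and +5043 bp. With the outermost 5′ end as the only start, 5 of the 16 genes were open in both replicates. Klf8 was open in replicate 2 only, with 9.11, and had 8.54 in the less strict list of replicate 1. The other 9 had no thresholded promoter interval, and 5 of the 16 had no thresholded interval at all in their window. The median window held 1 interval in each replicate, against 5 and 6 for the 10 members.

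For Klf5 the thresholded lists named different promoter intervals. Replicate 1 listed the site at -97 bp with 15.7, and replicate 2 listed one at +594 bp with 5.87, while the less strict list of replicate 2 held the site at -105 bp with 16.8. Its mean over the thresholded lists would therefore mix different sites and is not given.

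Of 10 cofactors known to act with KLF and SP factors, 9 had a promoter interval in both replicates, against 41.4% of genes. They were the corepressors Ctbp1, Sin3a, Sin3b, Hdac1 and Hdac2, the acetyltransferases Ep300, Crebbp and Kat2b, and the remodeller Smarca4. Sin3b had 13.7 and 13.0, Smarca4 11.0 and 11.5, and Ctbp1 5.38 and 4.90. Ctbp2, the other CtBP gene, had no promoter interval in either thresholded list. With the outermost 5′ end as the only start, 8 of the 10 cofactors were open in both replicates.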

How the data were processed

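ATAC-seq interval lists of 2 replicates of mouse erythroblasts were used. Every line of a deposited list holds 1 summit, the authors' fold enrichment over background (a ratio) and its significance as −log10 p. The aligner and the peak caller were not given in the sources used here. Lists of each replicate were made separately, per the labels and file listings, so enrichment served only to describe and rank within a list. The build is mm10, per the labels, with coordinates counted from 1.

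Lines with the same interval were merged, keeping the strongest summit, and placed with GENCODE M21 (Python 3.11.15, numpy 2.4.6, matplotlib 3.10.9). Sharing was an overlap of at least 1 bp. Motifs were exact matches on both strands in GRCm38.p6. Placement and overlap were tested on simulated data. The members, lists and motifs were chosen with earlier results of these data known. Named were all members, other KLF and SP genes open in a replicate, and the 3 genes most like Klf1. Locus neighbours, cofactors and markers were named after their values were seen. Alternatives were the less strict lists, a median enrichment filter, other promoter and window sizes, start and summit rules, a mutual overlap minimum, wider motif windows and leaving out each replicate.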

Additional observations from a re-analysis of the deposited data

How the results depend on the processing

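Keeping only intervals at or above the median enrichment of their list left 1 open member (Klf6), 3 open other KLF and SP genes, 4 open cofactors, a mean over the replicates of 1 promoter, 1 intragenic and 12 outside intervals in the members' windows, and 13 shared sites. The unfiltered values were 8, 6, 9, 16.5, 5.5, 41 and 56. The share of all protein-coding genes kept by this filter was not computed. With the less strict lists the means were 9.5 intragenic and 64.5 outside intervals, and with the outermost 5′ end as the only start, 9.5 intragenic. A window of 25 kb gave 20 outside intervals and 37 shared sites, and one of 100 kb gave 77.5 and 90. With the summit nearest to a start in place of the strongest, the median promoter enrichment of the open members was 4.82 in place of 6.32, and that of Klf13 was 2.29. The shares of intervals without a nearby start that hold a KLF-type box, a GC box and a GATA motif, pooled over the replicates, were 58.9%, 39.3% and 32.1%. They were 66.1%, 46.4% and 44.6% within 150 bp of the summit and 69.6%, 57.1% and 55.4% over the whole interval. A site found in both replicates counts once for each in these pooled shares, so the intervals are not distinct sites. Without the Klf16 window, an alternative chosen after seeing the data, the GC box was at 33.3% and the GATA motif at 23.8%. Except where the alternative itself keeps fewer or more intervals, the cause was not tested.

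Leaving out 1 replicate gave 8 open members either way, 6 to 7 other KLF and SP genes and 9 cofactors, 15 to 18 promoter, 5 to 6 intragenic and 38 to 44 outside intervals, and a median enrichment of 6.21 to 6.42. The shares were 55.2% to 63.0% for the KLF-type box, 37.9% to 40.7% for the GC box and 29.6% to 34.5% for GATA. Sharing needs both replicates and has no such value. Of all alternatives, 50 for summary values and 27 for single members stayed within the spread or within 1.5 times the count, and 23 and 5 moved. For single members and motif shares, leaving out 1 of 2 replicates cannot move a value beyond their SD, so those labels were fixed in advance. The less strict lists held the same promoter values for every open member. The tally is therefore not a measure of stability. No paired analysis was possible because the series has 1 group. With 2 replicates and no read counts, depth sets an unknown limit on weak sites such as the Klf2 promoter.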

Other observations

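Intervals as strong as the thresholded lists' median were at times missing from them. Of the intervals in a replicate's less strict list with an enrichment at or above the median of its thresholded list (7.83 in replicate 1, 7.74 in replicate 2), 126 of 9015 (1.4%) had no overlap in that thresholded list in replicate 1 and 135 of 9554 (1.41%) in replicate 2. The Klf5 promoter site of replicate 2 and the Klf8 promoter site of replicate 1 are among them, so absence from a thresholded list does not mean a low value in the less strict one.

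In the RefSeq promoters of the 8 members with an entry, 6 held a KLF-type box, against 57.3% of 16522 promoters, and 7 held a GC box, against 48.2%. Klf3 had 10 KLF-type matches and Klf4 had 9, while Klf1 and Sp3 had 0. The count of such boxes thus did not separate the open members from Klf2, with 4, and Klf4.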
